A study of Homo sapiens with 4 samples.

Results

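The frizzled and ROR receptors bind WNT proteins at the cell surface. The 10 genes described here, FZD1 to FZD8, ROR1 and ROR2, were taken by symbol from the 25559 gene symbols counted in each library. The list was chosen with earlier results of these data known, and all 10 are shown whatever their values. RNA-seq of poly(A) RNA was carried out on HGC-27, a human gastric cancer cell line that came from a lymph node metastasis. The study compared 2 libraries of wildtype cells (wt, the control) with 2 libraries of RUNX3 knock-out cells (RUNX3 KO), and asked which genes change when the transcription factor RUNX3 is lost. The RUNX3 KO cells had been transduced, with polybrene, by a lentivirus that carried Cas9 and a guide to RUNX3, selected with puromycin and passed through single-cell cloning. No such steps are named for the wt cells in the sources used here, and both groups grew in medium with serum. The number of clones, and whether the replicates were separate cultures, is not given in the sources used here. The p-values therefore measure only the spread between these libraries, which may be technical, and effects of RUNX3 loss, of transduction and selection, and of the clone cannot be told apart.

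WNT proteins are secreted, lipid-modified ligands that dock onto the cysteine-rich domain that frizzled and ROR proteins carry outside the cell. Frizzled proteins cross the membrane several times and recruit dishevelled inside the cell, and together with LRP5 or LRP6 they stabilise beta-catenin. ROR1 and ROR2 are receptor tyrosine kinase family members that cross the membrane a single time, and they are best known as receptors for WNT5A in beta-catenin-independent signalling, which acts on cell polarity and movement.

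Reads counted on genes numbered from 11731401 to 11733407 in the wt libraries and from 11898276 to 12110876 in the RUNX3 KO libraries, so that depth differed little. Within a group, libraries differed by little more than sampling noise (chi-square per degree of freedom 1.22 for the wt pair and 1.18 for the RUNX3 KO pair, where 1 is sampling noise alone). RUNX3 itself had 351 and 308 counts in wt and 225 and 185 in RUNX3 KO, a log2 fold change of -0.70 (SE 0.0961), so that its RNA was lower but present in the knock-out. Its adjusted p was 1.43e-09 in edgeR's quasi-likelihood test, and 0.0649 without RUNX3 KO replicate 2. Of 6 gastric mucosa markers, 5 were at 0 in every library and none had over 3 counts in any. Of 6 epithelial markers, 4 had over 3 counts in a library and EPCAM and KRT19 did not, with a summed level of 3.13 to 3.14 CPM (TMM-scaled counts relative to library size) in wt and 9.24 to 10.8 CPM in RUNX3 KO. Of 4 mesenchymal markers, 3 had over 3 counts in a library, and their summed level was 6091 to 6187 CPM in wt and 3546 to 3625 CPM in RUNX3 KO. The leukocyte and endothelial lists summed to at most 2.46 and 0.339 CPM in any library, with the endothelial genes PECAM1, CDH5 and KDR at 0. The part of these marker differences in the receptor values below was not tested, and in bulk RNA fewer cells of a type and less RNA per cell cannot be told apart.

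Receptor RNA changed in both directions. FZD1 and FZD7 were lower in RUNX3 KO than in wt by 1.63-fold and 1.49-fold, ROR1 was higher by 1.65-fold and FZD6 by 1.25-fold. FZD2, FZD3, FZD4, FZD5 and ROR2 did not pass the test, and FZD8 had no counts. Of the 9 receptors that passed the filter on low counts, 2 were lower and 2 higher at an adjusted p below 0.05 in the quasi-likelihood test of edgeR (p-values adjusted by Benjamini-Hochberg over 12967 genes). This is 22.2% in each direction, beside 24.4% of all tested genes lower and 24.5% higher (48.9% in either direction), so that the share of receptors called was near that of genes in general. The number higher was 1 without RUNX3 KO replicate 2, with the DESeq2 test and without the filter on low counts, as FZD6 was then not called (log2 fold change of 0.32 with all libraries and 0.16 without that replicate). At an unadjusted p below 0.05, 3 receptors were lower and 2 higher, beside 27.1% of tested genes lower and 27.0% higher (54.2% in either direction). The groups did not overlap for 8 of the 9 receptors, beside 72.7% of all tested genes. The median log2 fold change of the 9 receptors was 0.08, and that of all tested genes was -0.0021. None of the receptors reached the study's criteria of a fold change of at least 2 with an unadjusted p of at most 0.05, which 6.12% of tested genes did.

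**Figure D1:**
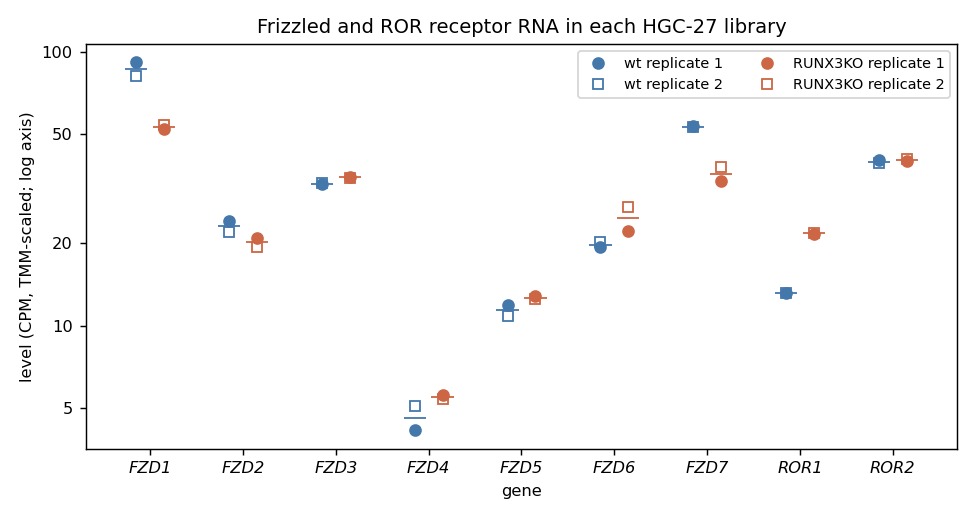
Level of each receptor in each of the 4 libraries, in CPM on a log axis, with a short line at the mean of each group. FZD1 and FZD7 lie lower in both RUNX3 KO libraries, ROR1 lies higher in both, and FZD8, with 0 counts in every library, is not drawn.

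The starts of FZD1, the receptor with the most counts, of ROR1, the receptor with the largest rise, and of FZD8, the receptor without counts, show what lies in front of genes that differed this much in RNA. The 250 bases before each start are given 5′ to 3′ on the gene's strand, from RefSeq on GRCh38.p14. They lie at chr7:91264183-91264432 on the plus strand for FZD1, at chr1:63773767-63774016 on the plus strand for ROR1 and at chr10:35642297-35642546 on the minus strand for FZD8. Capitals mark a match to the RUNX core letters TGTGGT or TGCGGT, searched on both strands without any other motif.
FZD1: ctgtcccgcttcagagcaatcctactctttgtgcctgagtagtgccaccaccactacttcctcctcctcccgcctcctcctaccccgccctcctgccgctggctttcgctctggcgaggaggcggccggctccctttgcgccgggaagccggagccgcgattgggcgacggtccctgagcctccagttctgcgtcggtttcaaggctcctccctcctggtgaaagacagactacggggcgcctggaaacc
ROR1: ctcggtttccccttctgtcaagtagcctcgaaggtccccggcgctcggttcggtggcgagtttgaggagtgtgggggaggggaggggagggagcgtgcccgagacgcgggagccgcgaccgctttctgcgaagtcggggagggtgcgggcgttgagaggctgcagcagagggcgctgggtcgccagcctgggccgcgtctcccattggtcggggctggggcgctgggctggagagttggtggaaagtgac
FZD8: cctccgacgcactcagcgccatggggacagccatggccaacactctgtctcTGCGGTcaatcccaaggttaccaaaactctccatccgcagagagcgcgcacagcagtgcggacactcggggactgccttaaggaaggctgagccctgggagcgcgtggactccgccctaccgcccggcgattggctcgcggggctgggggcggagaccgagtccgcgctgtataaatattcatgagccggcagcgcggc
Of the 6 receptors with an entry in the promoter table (FZD1, FZD4, FZD5, FZD8, ROR1 and ROR2), 1 held a match, FZD8, at 199 bases before its start. Among 35116 promoter windows of the same length, 16.3% held a match. A match is a run of letters and not a shown binding site, and its absence says only that these letters do not occur in this window. All 6 windows had more G and C than the median of 58% over all windows. The share was 65.2% in FZD1 and FZD8, 69.2% in ROR1, 76.8% in FZD5, 78% in ROR2 and 80.8% in FZD4. FZD1 and FZD8 lay below the upper quartile of 68%. The 6 windows held 19 CpG in FZD1, 24 in ROR1 and FZD8, 30 in FZD5, 32 in ROR2 and 33 in FZD4. Over all windows the median was 11 and the upper quartile 23, which FZD1 did not reach. ROR2, whose RNA did not pass the test, and FZD4 and FZD5, which did not either, had the windows with the most CpG of the 6.

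FZD1 and FZD7 are close relatives of FZD2, and all of these serve as receptors for beta-catenin-dependent and other WNT signals. FZD1 (GRCh37 chr7:90893748-90900641, plus strand, 1 exon) had 1080 and 962 counts in wt and 615 and 649 in RUNX3 KO. Both RUNX3 KO libraries lay below both wt libraries. The level was 86.5 ± 7.04 CPM (SD, n = 2) in wt and 53.0 ± 1.33 CPM in RUNX3 KO, a log2 fold change of -0.71 (SE 0.0557, 95% interval -0.82 to -0.59) with an adjusted p of 6.82e-20 in edgeR's quasi-likelihood test. The fall of FZD1 was a change that 7.10% of tested genes matched or exceeded in the same direction. It was called in 13 of 13 other fits, with log2 fold changes from -0.79 to -0.62.

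FZD7 (GRCh37 chr2:202898578-202903164, plus strand, 1 exon) had 634 and 625 counts in wt and 398 and 455 in RUNX3 KO. The wt libraries were nearly equal and both RUNX3 KO libraries lay below them. Its level was 53.3 ± 0.523 CPM in wt and 35.8 ± 2.92 CPM in RUNX3 KO (SD, n = 2), a log2 fold change of -0.57 (SE 0.0678, 95% interval -0.71 to -0.44) with an adjusted p of 6.65e-12 in edgeR's quasi-likelihood test. It was also called in 13 of 13 other fits, from -0.66 to -0.49, and 9.45% of tested genes fell at least as far. The ratio of FZD1 to FZD7 counts was 1.70 and 1.54 in wt and 1.55 and 1.43 in RUNX3 KO, and these ratios overlapped between the groups.

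FZD2 (GRCh37 chr17:42634852-42638630, plus strand, 1 exon), the relative of FZD1 and FZD7, had 285 and 259 counts in wt and 247 and 234 in RUNX3 KO. The RUNX3 KO libraries were the lower, without overlap, but by a small step. The level was 23.0 ± 1.55 CPM in wt and 20.2 ± 1.03 CPM in RUNX3 KO (SD, n = 2). The log2 fold change of -0.19 (SE 0.0941, 95% interval -0.38 to -0.0036) did not pass adjustment, with an adjusted p of 0.0858 in edgeR's quasi-likelihood test, and it was called in 0 of 13 other fits.

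FZD6 and FZD3 are related to each other and are best known for planar cell polarity, such as the orientation of hairs and the guidance of axons. FZD6 (chromosome 8, plus strand, 7 exons) had 229 and 238 counts in wt and 261 and 327 in RUNX3 KO. The RUNX3 KO libraries were the higher, but they differed from each other more than the wt libraries did. The level was 19.8 ± 0.545 CPM in wt and 24.7 ± 3.60 CPM in RUNX3 KO (SD, n = 2), a log2 fold change of 0.32 (SE 0.0952, 95% interval 0.13 to 0.51) with an adjusted p of 0.00348 in edgeR's quasi-likelihood test. The rise of FZD6 rested on RUNX3 KO replicate 2: without that library it was 0.16 with an adjusted p of 0.270. The call was also lost with DESeq2 (adjusted p of 0.127) and without the filter on low counts (0.100), while 10 of 13 other fits kept it.

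FZD3 (chromosome 8, plus strand, 8 exons) had 388 and 391 counts in wt and 413 and 416 in RUNX3 KO. The RUNX3 KO libraries lay above the wt libraries by a step about as large as its standard error. Its level was 33.0 ± 0.189 CPM in wt and 34.8 ± 0.275 CPM in RUNX3 KO, with a log2 fold change of 0.08 (SE 0.0754, 95% interval -0.07 to 0.23) and an adjusted p of 0.421 in edgeR's quasi-likelihood test. FZD3 was called in 0 of 13 other fits.

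FZD4, a receptor for norrin in retinal vessels, and FZD5, a receptor of the WNT signal in intestine and eye, were among the lower receptors in counts. FZD4 (GRCh37 chr11:86656721-86666437, minus strand, 2 exons) had 49 and 60 counts in wt and 66 and 65 in RUNX3 KO. The groups did not overlap, but at this depth the log2 fold change of 0.25 had a standard error of 0.189, an interval of -0.13 to 0.63 and an adjusted p of 0.279 in edgeR's quasi-likelihood test. With a library left out, the log2 fold change of FZD4 ran from 0.11 to 0.40. FZD4 shares 1399 bases of exon with PRSS23 on the opposite strand, and 18.6% of its 50-base words also occur in another gene, with PRSS23 sharing the most. PRSS23 itself had 46 and 46 counts in wt and 4 and 5 in RUNX3 KO. Without a stated strand setting, reads from the shared stretch cannot be assigned with certainty, so the FZD4 counts are uncertain.

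FZD5 (GRCh37 chr2:208627322-208634630, minus strand, 2 exons) had 141 and 128 counts in wt and 151 and 150 in RUNX3 KO. The RUNX3 KO libraries lay above the wt libraries. The log2 fold change was 0.15 (SE 0.123, 95% interval -0.10 to 0.39) with an adjusted p of 0.331 in edgeR's quasi-likelihood test. With a library left out, that of FZD5 ran from 0.08 to 0.22. FZD8 (GRCh37 chr10:35927175-35931224, minus strand, 1 exon), the closest relative of FZD5, had 0 counts in each of the 4 libraries, which allows up to 3 counts in any of them. Of the relatives FZD1, FZD7 and FZD2, 0.468% of the 50-base words of FZD1 and 0.441% of those of FZD7 occurred in another gene, with FZD2 sharing the most. For FZD2 it was 2.33% (87 of 3730 words, 55 of them in another receptor of the 10).

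**Figure D2:**
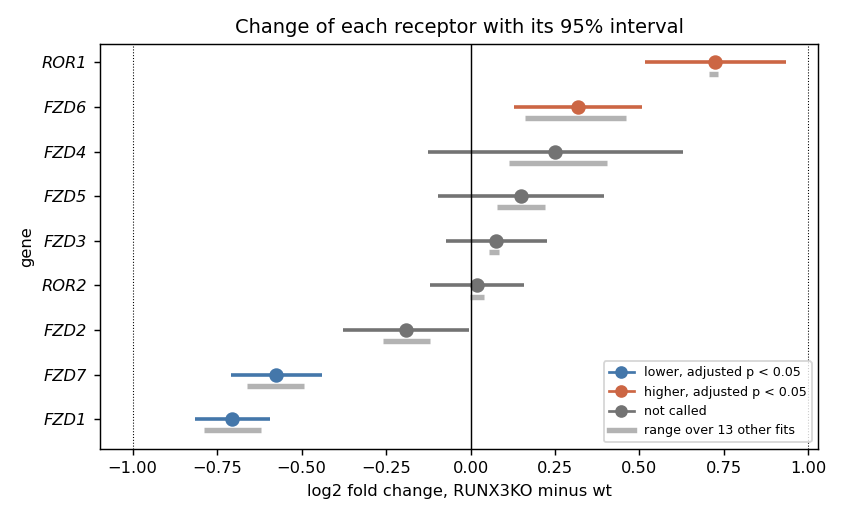
Log2 fold change of RUNX3 KO against wt for the 9 tested receptors, with the 95% interval as a thin bar and the range over 13 other fits as a thick grey bar, and dotted lines at -1 and 1. FZD1 (-0.71) and FZD7 (-0.57) lie below 0 and ROR1 (0.73) above 0 over the whole range, and no receptor reaches either dotted line.

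Of the ROR receptors, ROR1 rose and ROR2 was not called. ROR1 (GRCh37 chr1:64239688-64647181, plus strand, 9 exons), a receptor for WNT5A found in embryonic tissue and in several cancers, had 156 and 155 counts in wt and 256 and 263 in RUNX3 KO. Both RUNX3 KO libraries lay well above both wt libraries, and the libraries of each group were nearly equal. The level was 13.2 ± 0.0560 CPM in wt and 21.8 ± 0.132 CPM in RUNX3 KO (SD, n = 2), a log2 fold change of 0.73 (SE 0.104, 95% interval 0.52 to 0.93) with an adjusted p of 5.39e-09 in edgeR's quasi-likelihood test. The rise of ROR1 was called in 13 of 13 other fits, from 0.70 to 0.73, and 3.59% of tested genes rose at least as far. None of the 50-base words of ROR1 occurred in another gene.

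ROR2 (GRCh37 chr9:94325373-94712510, minus strand, 9 exons), the WNT5A receptor of limb and skeletal development, had 475 and 462 counts in wt and 471 and 488 in RUNX3 KO. These values overlapped between the groups, and ROR2 was the only tested receptor for which they did. Its level was 39.7 ± 0.767 CPM in wt and 40.2 ± 0.485 CPM in RUNX3 KO, a log2 fold change of 0.02 (SE 0.0699) with an adjusted p of 0.839 in edgeR's quasi-likelihood test. The 95% interval of the ROR2 fold change ran from 0.921 to 1.12. The ROR2 to ROR1 count ratio was 3.04 and 2.98 in wt and 1.84 and 1.86 in RUNX3 KO, without overlap.

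Genes near each receptor were compared to see whether a receptor stood with its surroundings. For each receptor, the 40 nearest tested genes on the chromosome were taken, 20 on each side. The neighbours of FZD1 had a median log2 fold change of -0.03, with 4 of the 40 at least as low as FZD1. Those of FZD7 also had a median of -0.03, with 4 of the 40 at least as low. The neighbours of ROR1 had a median of 0.03, and 1 of the 40 was at least as high as ROR1. Over all tested genes, 7.10% lay at least as low as FZD1 and 9.45% as FZD7, and for ROR1 3.59% lay at least as high. FZD1, FZD7 and ROR1 had the largest changes of the receptors, so they had to lie away from a median near 0. Whether a region changed as a whole was not tested. For FZD2 to FZD6 the medians ran from -0.04 to 0.04. For ROR2 the neighbours had a median of 0.34, with 37 of the 40 above 0 and 4 at least as low as ROR2. Relative to that median, ROR2 lay at -0.32.

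**Figure D3:**
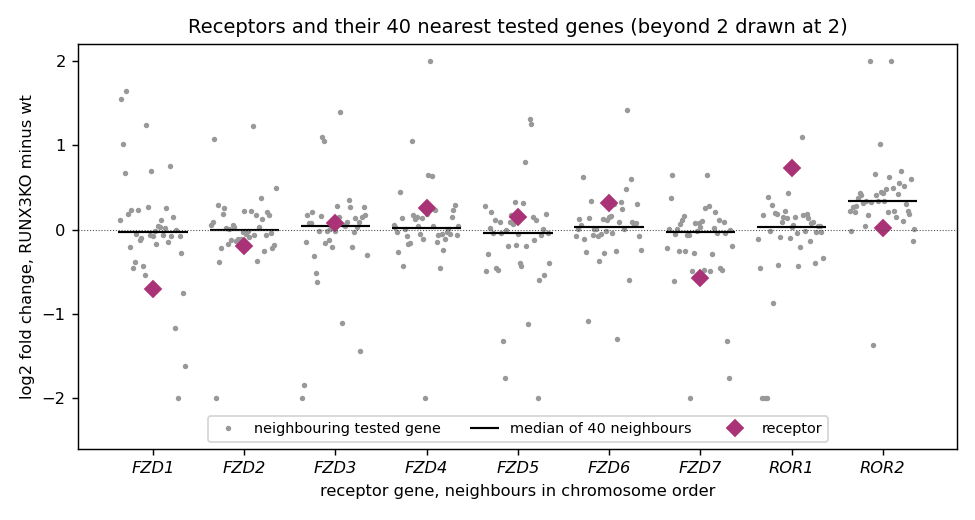
Log2 fold change of RUNX3 KO against wt for each tested receptor (diamond) and its 40 nearest tested genes (dots, in chromosome order), with a line at their median and dots beyond 2 or -2 drawn at that limit. The neighbours of ROR2 lie mostly above 0, with a median of 0.34, whereas ROR2 lies at 0.02.

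Levels of different genes were compared per length, in RPKM (CPM divided by union exon length in kilobases). In wt the order of the mean levels was FZD1 (12.5), FZD7 (11.6), ROR2 (6.75), FZD2 (6.10), FZD6 (4.87), FZD3 (2.39), ROR1 (1.96), FZD5 (1.62) and FZD4 (0.625 RPKM), and no neighbours in this order overlapped between their libraries. In RUNX3 KO it was FZD7 (7.80), FZD1 (7.69), ROR2 (6.85), FZD6 (6.07), FZD2 (5.34), ROR1 (3.24), FZD3 (2.52), FZD5 (1.80) and FZD4 (0.744 RPKM). There FZD7 and FZD1 overlapped, as did FZD6 and FZD2. ROR1 moved above FZD3 in this order, and ROR2, whose own level differed little, lay close below FZD7 and FZD1. The order depended on the length used: with the coding length, a choice made after seeing the data, FZD3 stood next after FZD1 and FZD7 in both groups. With the longest transcript, ROR2 stood above FZD7 and FZD1 in RUNX3 KO.

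The summed level of the 8 frizzled genes was 40.8 and 38.8 RPKM in wt and 31.0 and 32.9 RPKM in RUNX3 KO. The summed level of FZD1 and FZD7 was 145 and 134 CPM in wt and 85.8 and 91.8 CPM in RUNX3 KO, while that of the 6 other frizzled genes was 92.5 and 91.2 CPM in wt and 96.4 and 99.2 CPM in RUNX3 KO. FZD1 and FZD7 held 61.1% and 59.6% of frizzled counts in wt and 47.1% and 48.1% in RUNX3 KO. Per length, FZD1 made up 31.5 ± 1.44% of frizzled RNA in wt and 24.1 ± 0.430% in RUNX3 KO (SD, n = 2), and FZD7 29.2 ± 0.756% and 24.4 ± 0.945%. FZD6 went from 12.2 ± 0.774% to 18.9 ± 1.96% of frizzled RNA, and the ratio of FZD1 to FZD6 counts was 4.72 and 4.04 in wt and 2.36 and 1.98 in RUNX3 KO. Part of this shift is the lower frizzled total, as the level of FZD6 itself went from 4.87 to 6.07 RPKM. The FZD6 log2 fold change was 0.32 with all libraries and 0.16 without RUNX3 KO replicate 2. ROR1 made up 22.3% and 22.7% of ROR RNA per length in wt and 32.2% and 32.1% in RUNX3 KO. These sums and shares are descriptions, given without a test.

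**Figure D4:**
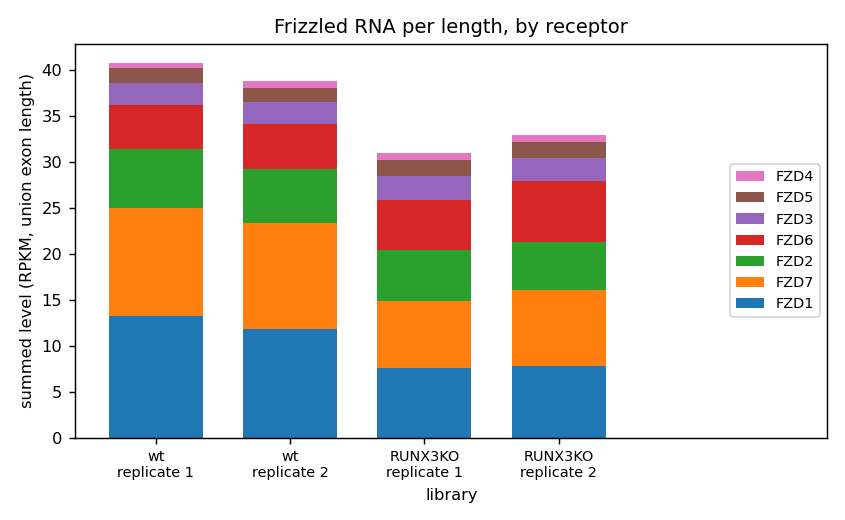
Summed level per length of the frizzled receptors in each library, in RPKM by union exon length, stacked by receptor. The FZD1 and FZD7 blocks are shorter in both RUNX3 KO libraries, and the total is 40.8 and 38.8 RPKM in wt and 31.0 and 32.9 RPKM in RUNX3 KO.

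The receptors' ligands and partners were described from 9 lists, written by role. WNT5A, the ligand best known for ROR2 and FZD binding, had 1490 and 1445 counts in wt and 581 and 656 in RUNX3 KO, a log2 fold change of -1.26 (SE 0.0510). Of the 79 genes in the 9 lists, 62 were tested, of which 20 were lower (32.3%) and 17 higher (27.4%) in RUNX3 KO by edgeR's quasi-likelihood test, beside 24.4% lower and 24.5% higher over all tested genes. Their median log2 fold change was 0.02, beside -0.0021 over all tested genes. Without RUNX3 KO replicate 1, and equally without replicate 2, 13 were lower and 8 higher, while the calls over all tested genes went from 6341 to 3014 and 2663. The DESeq2 test gave 17 lower and 10 higher, with 3692 calls over all genes. Of the receptors outside the 10, none was called: FZD9 had 25 and 40 counts in wt and 30 and 41 in RUNX3 KO, SMO, the hedgehog transducer of the same superfamily, had 686 and 622 against 722 and 652, and FZD10 was at 0 in every library.

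Among the LRP co-receptors and their chaperone, 1 of 4 was lower and 2 higher, beside 24.4% and 24.5% of all tested genes. The median log2 fold change of the list was 0.11. LRP4, a co-receptor that acts at the neuromuscular junction and in bone, fell from 999 and 1008 counts to 612 and 647, a log2 fold change of -0.69 (SE 0.0543). LRP5, which pairs with frizzled for beta-catenin signalling, was called at 0.13 (SE 0.0537), but the LRP5 call was lost in 7 of 13 other fits. The LRP5 log2 fold change was 0.19 without wt replicate 1 and 0.08 without wt replicate 2. LRP6, the close relative of LRP5, stood at 0.08 and was not called. MESDC2, the chaperone that folds LRP5 and LRP6, rose by 0.40 (SE 0.0465), and its 40 neighbours had a median of 0.25.

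Of other kinases and co-receptors that bind WNT, 2 of 3 tested were lower and 1 higher, beside 24.4% and 24.5% of all tested genes. The median of the list was -0.29. PTK7, a pseudokinase of planar cell polarity, went from 2446 and 2394 counts in wt to 1244 and 1354 in RUNX3 KO, a log2 fold change of -0.91 (SE 0.0390). MCAM, a cell adhesion receptor that binds WNT5A, stood at -0.29 (SE 0.0407). RYK, a pseudokinase that binds WNT5A, was higher at 0.18 (SE 0.0621), and its call was lost in 3 of 13 other fits.

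For frizzled turnover and the R-spondin system, 2 of 5 tested genes were lower and 2 higher, beside 24.4% and 24.5% of all tested genes. The median of the list was -0.40. ZNRF3, the ubiquitin ligase that removes frizzled from the surface, fell by 0.40 on the log2 scale (SE 0.0745). Its 40 neighbours had a median of -0.56, with 39 of them below 0, and the ZNRF3 call was lost in 2 of 13 other fits, those without either RUNX3 KO library. LGR4, the R-spondin receptor that restrains ZNRF3, had 933 and 955 counts in wt and 544 and 540 in RUNX3 KO, a log2 fold change of -0.81 (SE 0.0571). USP8, a deubiquitinase that returns frizzled to the surface, rose by 0.34 (SE 0.0580), beside a neighbourhood median of 0.20. RNF43, the relative of ZNRF3, had 16 and 22 counts in wt and 11 and 13 in RUNX3 KO and was not called.

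Of 7 tested frizzled accessory proteins, 2 were lower and 2 higher, beside 24.4% and 24.5% of all tested genes. The median of the list was -0.02. LYPD6, a membrane protein that supports LRP6, had 111 and 100 counts in wt and 14 and 17 in RUNX3 KO, a log2 fold change of -2.77 (SE 0.228). GPR124, a co-activator for WNT7 in brain vessels, had 2292 and 2148 against 1151 and 1207 counts, a log2 fold change of -0.93 (SE 0.0406). TSPAN12, the tetraspanin that helps FZD4 respond to norrin, rose by 0.48 (SE 0.0724). Dishevelled, which frizzled recruits inside the cell, was higher for 2 of 3 genes (median 0.23), with DVL1 at 0.30 (SE 0.0536), DVL3 at 0.23 (SE 0.0508) and DVL2 at 0.0017 and not called. The DVL1 and DVL3 calls were both lost without RUNX3 KO replicate 1 (0.27 and 0.17, adjusted p of 0.0590 and 0.0789 in edgeR's quasi-likelihood test).

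The planar cell polarity core had 3 of 11 tested genes lower and 4 higher, beside 24.4% and 24.5% of all tested genes. The median of the list was 0.0092. VANGL2, a membrane protein that binds dishevelled and is a target of ROR2, had 159 and 130 counts in wt and 71 and 85 in RUNX3 KO, a log2 fold change of -0.90 (SE 0.145). The VANGL2 call did not hold with either RUNX3 KO library left out (-0.79 and -1.02, adjusted p of 0.0664 and 0.0534 in edgeR's quasi-likelihood test). CELSR2, a large cadherin of the pathway, had 562 and 576 counts against 852 and 924, a log2 fold change of 0.63 (SE 0.0577). PRICKLE2, a cytoplasmic partner, fell by 0.44 (SE 0.150), and the PRICKLE2 call was lost in 5 of 13 other fits.

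Among 14 tested ROR and dishevelled effectors, 6 were lower and 1 higher, beside 24.4% and 24.5% of all tested genes, and the median log2 fold change of the list was 0.0041. KIF26B, a kinesin family protein that is degraded when WNT5A signals through ROR receptors, had 283 and 254 counts in wt and 93 and 73 in RUNX3 KO, a log2 fold change of -1.71 (SE 0.123). KIF26A, its relative, stood at -0.76 (SE 0.0495). DAAM1, the formin that links dishevelled to RHOA, stood at -1.06 (SE 0.131). DAAM1 and KIF26A lie among neighbours that were themselves slightly lower, with medians of -0.17 and -0.16. The other genes called lower, named after their values were seen, were ROCK2, a kinase activated by RHOA, at -0.12 (SE 0.0452), FLNA, an actin crosslinker that binds ROR2, at -0.13 (SE 0.0209), and MAPK8, a JNK kinase, at -0.27 (SE 0.112). The calls of ROCK2 and MAPK8 were each lost in 5 of 13 other fits, and that of FLNA in 2, those without either RUNX3 KO library. The MAPK8 counts, 186 and 222 in wt and 152 and 190 in RUNX3 KO, overlapped between the groups. The MAPK8 log2 fold change was -0.13 without RUNX3 KO replicate 1 and -0.42 without RUNX3 KO replicate 2. The remaining 7 tested effectors were not called, among them the small GTPases RHOA at 0.04, RAC1 at 0.04 and CDC42 at -0.01. Of the WNT calcium branch, 4 of 13 tested genes were lower and 3 higher (median -0.03), with NFATC4, a calcium-regulated transcription factor, at -0.88 (SE 0.0686) beside a neighbourhood median of -0.43, PLCB4 at -0.47 (SE 0.0999) and CAMK2B at 0.43 (SE 0.147). The PLCB4 call was lost in 1 of 13 other fits and that of CAMK2B in 4.

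**Figure D5:**
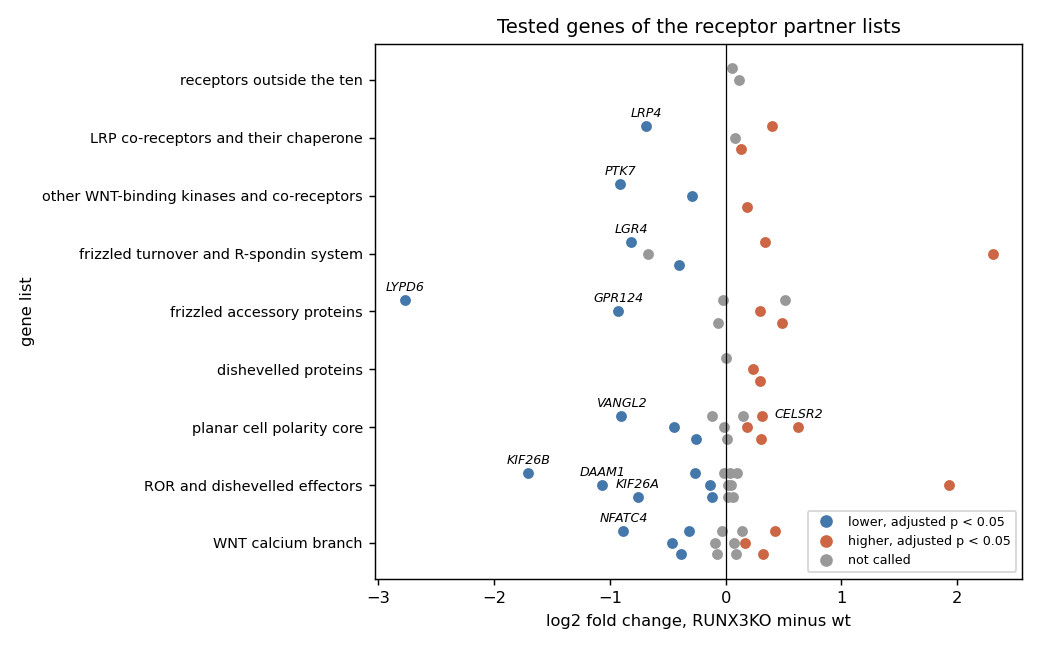
Log2 fold change of RUNX3 KO against wt for each of the 62 tested genes of the 9 partner lists, coloured by the call at an adjusted p below 0.05. Both directions occur in most lists, with LYPD6 (-2.77) and KIF26B (-1.71) lowest, and the highest point, RSPO4, rests on 3 and 2 counts in wt.

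Across the 9 lists, 5 of the 62 tested genes passed the study's criteria of at least a 2-fold change, beside 6.12% of all tested genes. LYPD6, KIF26B and DAAM1 were lower, and RSPO4 and MAPK10 were higher. RSPO4, an R-spondin, had 3 and 2 counts in wt and 13 and 13 in RUNX3 KO, and MAPK10, a JNK kinase, had 6 and 5 against 17 and 26. Both were singled out after their values were seen, and both lost their call without RUNX3 KO replicate 2 (adjusted p of 0.0514 for RSPO4 and 0.0588 for MAPK10 in edgeR's quasi-likelihood test). The MAPK10 log2 fold change was 1.93 with all libraries and 1.61 in that fit. RSPO4 also lost its call with the DESeq2 test (adjusted p of 0.0599), and no fold is given for it because wt had at most 3 counts in each library.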

How the data were processed

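RNA-seq was analysed for 2 wt and 2 RUNX3 KO libraries of HGC-27 cells. The authors deposited raw read counts per gene symbol for each library, without normalization, against hg19. Per the labels, the processing used HISAT2 2.1.0 and HTSeq after a stranded mRNA kit, whereas the methods of the study name STAR, FeatureCounts and GENCODE. The strand setting is not given in the sources used here. Each table ended with 5 rows of reads without a gene (25.9% to 28.1% of counts), which were left out.

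Counts were compared in R 4.3.3 with edgeR 4.0.16 (filterByExpr, minimum count 10 and total 15, TMM, quasi-likelihood test, Benjamini-Hochberg adjustment, threshold 0.05) over 12967 genes, with all 4 libraries and no block. CPM are TMM-scaled counts and RPKM divide them by union exon length. Standard errors were derived from the fold change and the F statistic of each gene. Gene positions and lengths came from GENCODE lifted to GRCh37 (21758 of 25559 symbols matched, 2151 through older symbols), and promoters from RefSeq on GRCh38.p14. Replicate numbers were compared by the correlation of deviations.

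The 10 receptors, the marker lists and the 9 partner lists were chosen with earlier results of these data known. All 10 receptors were named, and from each list up to 3 called genes with the largest change and a mean of at least 50 counts. Other genes were named after their values were seen. On simulated counts for RUNX3 KO against wt (12826 genes), 78.8% of 1.5-fold and 91.7% of 2-fold changes were recovered, with 10 false calls. The simulation gave every gene the same small spread beyond sampling noise (1.45%) and left most genes unchanged. In these data 48.9% of tested genes were called, and these rates do not carry over to separate cultures or clones. The 13 other fits were other scalings and tests (among them limma-voom 3.58.1 and DESeq2 1.42.0), other filters, a block for the replicate number and each library left out in turn.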

Additional observations from a re-analysis of the deposited data

How the results depend on the processing

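The fall of FZD1 and FZD7 and the rise of ROR1 passed an adjusted p of 0.05 in edgeR and in all 13 other fits, so that 2 receptors were lower in each. The number of receptors higher was 1, not 2, without the filter on low counts and with the DESeq2 test, and ranged from 1 to 2 with a library left out, since FZD6 lost its call without RUNX3 KO replicate 2. Partner genes lower ranged from 13 to 21 and partner genes higher from 8 to 14 with a library left out, against 20 and 17 with all, and 10 were higher with the DESeq2 test. Of all tested genes, 6341 were called with all libraries, 3692 with the DESeq2 test, and 3014 and 2663 without RUNX3 KO replicate 1 or 2. With a coding length, FZD1 made up 35.8% of frizzled RNA per length in wt and 27.4% in RUNX3 KO. The deviations of same-numbered libraries had a correlation of 0.0257 over 12967 genes. Libraries within a group differed by little more than sampling noise, so this value cannot show whether same-numbered libraries were handled together. A fit with a replicate block called 2 receptors lower and 2 higher, 20 and 17 partner genes, and 6286 genes in all. Of 299 refits of the 23 named partner genes, 273 kept their call and direction. These partner genes were named because they were called with the largest changes in these same libraries, so many kept calls follow from the choice. With 2 libraries a group, an exact permutation test of a single value cannot give a p below 0.333. At this depth, the intervals of FZD4 and FZD5 span changes as large as that called for FZD6.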
